A study of Mus musculus with 16 samples.

Results

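The 10 genes described here encode 7 secreted neuropeptides or peptide precursors and granule proteins (Calca, Calcb, Cartpt, Resp18, Grp, Nmb, Gal), 2 enzymes of monoamine synthesis (Ddc and Tph1) and Uchl1, a ubiquitin hydrolase used as a neuroendocrine marker. They were taken by symbol from the 17655 genes listed in every table, and all 10 were found. RNA was sequenced from mouse preSC, which are precancerous cells of small cell lung cancer described as lung neuroendocrine cells positive for Chga. Both groups carried the same genotype of Rb1 null, Trp53 null and Rbl2 heterozygous null. One group was infected with a lentiviral empty control ("empty") and the other with a lentivirus carrying Wnt5a, a secreted Wnt ligand ("Wnt5a"), with 8 deposited samples in each. Doxycycline at 1 µg/mL was given to cells of both groups for 48 h before RNA was extracted. The vectors' promoters, and whether the cells are 1 clone, are not given in the sources used here. The comparison asks how these genes' RNA levels differ between cells with and without the Wnt5a vector.

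Pulmonary neuroendocrine cells are airway cells that store peptides and amines in dense-core granules and release them on stimulation. Peptides are made as longer precursors, cut by prohormone convertases in the granule and often amidated at their C-terminus before they are active. Amines follow a separate route, in which a hydroxylase acts on tryptophan or tyrosine and Ddc, the aromatic L-amino acid decarboxylase, then gives serotonin or dopamine. Calcitonin gene-related peptide, gastrin-releasing peptide and Ddc have long been used to recognise these cells and the tumours that arise from them.

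The 250 bases before the transcription start are shown for the 3 members whose samples did not overlap between the groups. The share of all genes with samples so separated was not counted. They come from the RefSeq table of GRCm38.p6, read 5′ to 3′ on the gene's strand, which is the minus strand for all 3. Capitals mark matches on either strand to the cyclic AMP response element TGACGTCA, to TGACG, which is its shorter core and overlaps it, to the E-box CAGCTG, to the TATA box TATAAA or to the CCAAT box.
Cartpt, chr13:99900684-99900933: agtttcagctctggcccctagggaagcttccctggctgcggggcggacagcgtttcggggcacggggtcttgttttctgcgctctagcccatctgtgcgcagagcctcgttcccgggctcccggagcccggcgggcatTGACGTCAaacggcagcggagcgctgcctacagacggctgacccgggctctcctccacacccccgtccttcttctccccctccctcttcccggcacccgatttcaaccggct
Calca, chr7:114636358-114636607: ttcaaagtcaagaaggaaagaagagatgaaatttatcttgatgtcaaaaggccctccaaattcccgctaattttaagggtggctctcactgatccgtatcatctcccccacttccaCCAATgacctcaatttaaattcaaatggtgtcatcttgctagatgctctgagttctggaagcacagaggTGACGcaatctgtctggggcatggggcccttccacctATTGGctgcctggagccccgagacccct
Resp18, chr1:75278416-75278665: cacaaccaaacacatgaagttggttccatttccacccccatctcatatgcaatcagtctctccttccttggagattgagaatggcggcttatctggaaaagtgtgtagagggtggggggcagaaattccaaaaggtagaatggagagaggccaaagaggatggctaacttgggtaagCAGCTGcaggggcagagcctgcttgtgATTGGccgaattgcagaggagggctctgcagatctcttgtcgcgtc

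Counting back from the start at position -1, the window of Cartpt held the full palindrome TGACGTCA at position -112, which also contains the shorter core on both strands (positions -112 and -109). The Calca window held TGACG at position -65 and the CCAAT box at positions -134 and -28. In the Resp18 window, CAGCTG lay at position -73 and the CCAAT box at position -46. Of 32851 windows of the same length in the table, 1.55% held TGACGTCA, 17.8% TGACG, 13.0% CAGCTG, 12.4% TATAAA and 33.8% CCAAT. These matches are a description of the letters, and binding was not measured. Windows were read for 8 of the 10 members, all but Calcb and Grp. Members' windows on chromosome 18, where Grp lies, were left out of the reading, and none was found for Calcb.

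Read totals recovered from the deposited values were 7526676 to 8859862 per sample, and 14719 to 15013 genes per sample had reads. In each group samples 1 to 4 were close to sampling noise of one another, and samples 5 to 8 were too. In 14 of the 24 pairs of samples from 1 library the chi-square test gave a p under 0.05, a small excess over counting noise. Each such set of 4 was counted as 1 sample, called library A (samples 1 to 4) and library B (samples 5 to 8). The index of dispersion was 0.987 to 1.05 in the 24 pairs within a library and 5.23 to 5.44 in the 32 pairs of samples across the libraries of a group. All means, SDs and tests therefore rest on 2 libraries per group. The labels do not say that A and B came from separate cultures, so p-values measure only the spread between these libraries, which may be technical. Wnt5a itself checked the labels, with 90.4 to 174 normalised reads in the empty samples and 1032 to 1560 in the Wnt5a samples (log2 difference 3.38, SE 0.22, limma adjusted p = 0.0010). Chga was high in both groups, with library values of 4370 and 3716 in empty cells and 3800 and 3007 in Wnt5a cells (log2 difference -0.25, limma adjusted p = 0.428). Rb1, labelled null, had 3147 to 3302 normalised reads in all 16 samples, and Trp53, also labelled null, had 59.6 to 119. The tables do not show which part of either gene those reads cover.

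Of the 10 members, 8 had a mean of at least 10 normalised reads and were tested. Cartpt fell in Wnt5a cells, and it was the only member past the threshold of 0.05 for the limma p adjusted over all 12357 genes tested. Across all genes tested 2.06% passed in either direction and 0.672% fell. Calca and Resp18 were lower in every Wnt5a sample than in any empty sample without passing the threshold. How many of all genes had samples so separated was not counted. Samples of 1 library are near repeats, and 21.5% of all genes tested had both Wnt5a libraries under both empty libraries. The high levels of Ddc and Uchl1, the low levels of Calcb, Grp and Nmb, and the near absence of Gal and Tph1 reads were found in both groups. In bulk RNA such as this, fewer cells expressing a gene and less RNA per cell cannot be told apart.

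**Figure D1:**
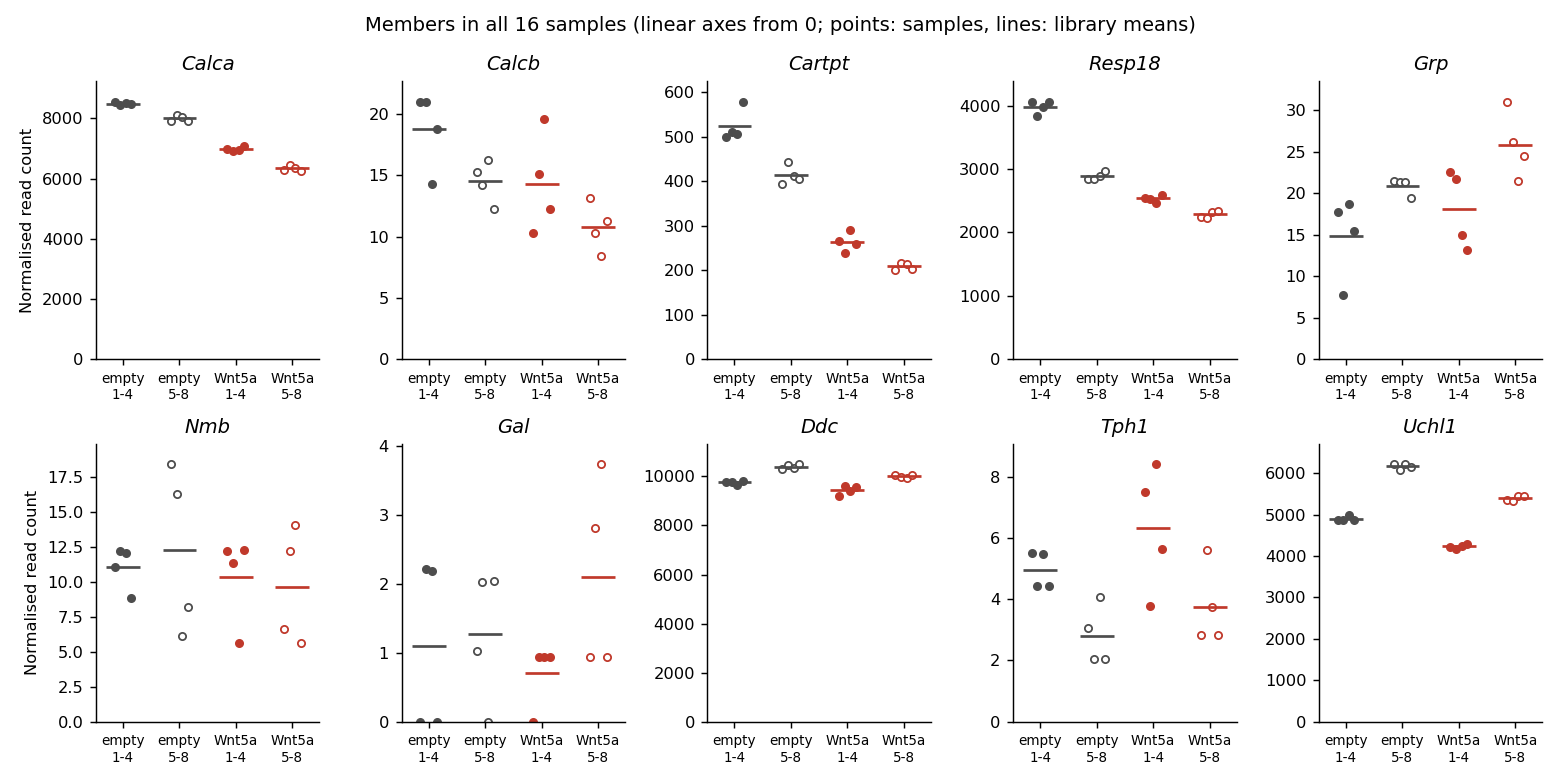
Normalised read counts (vertical axes, linear from 0) of the 10 members in all 16 samples; each point is a sample and each line is the mean of a library of 4 samples, with empty in grey and Wnt5a in red. For Calca, Cartpt and Resp18 all 8 Wnt5a samples lie under all 8 empty samples.

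Calca encodes calcitonin and, by alternative splicing, calcitonin gene-related peptide alpha. Its normalised read count was 7898 at the lowest, 8282 at the median and 8557 at the highest of the empty samples. In the Wnt5a samples these values were 6254, 6686 and 7080. The Wnt5a samples were thus all below the empty samples, and the libraries (8494 and 8002 in empty, 6979 and 6336 in Wnt5a) did not overlap either. The means were 8248 ± 348 (SD, n = 2) in empty and 6657 ± 455 (SD, n = 2) in Wnt5a cells. On the scale of log2(value + 1), the difference of the group means was -0.31 (SE 0.09, 95% interval -0.52 to -0.10, limma adjusted p = 0.154), which did not pass. Within library A the difference was -0.28 and within B -0.34. Here and below, such differences set the libraries of the same sample numbers against each other, and the labels do not say that these are pairs. DESeq2 on the recovered reads did call it, with an adjusted p of 0.0429.

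Calcb, also on chromosome 7, encodes calcitonin gene-related peptide beta. Its level was far lower, resting on 68 and 57 reads in the empty libraries and 61 and 46 in the Wnt5a libraries. The empty samples ran from 12.3 through a median of 15.8 to 21.0, and the Wnt5a samples from 8.40 through 11.8 to 19.6, so the groups overlapped. The means were 16.6 ± 3.0 and 12.6 ± 2.49 (SD, n = 2 each), with a log2 difference of -0.38 (95% interval -0.98 to 0.22, limma adjusted p = 0.556). Calca and Calcb share some sequence, but 98.7% of the 50-base windows of the longest Calca transcript and 98.8% of those of Calcb were found in no other gene. How the authors treated reads from shared stretches is not given in the sources used here.

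Cartpt encodes the precursor of the CART peptides, which act as transmitters in brain, gut and endocrine cells. In empty cells its samples ran from 395 through a median of 472 to 579 normalised reads. In Wnt5a cells they ran from 201 through 227 to 290. Every Wnt5a sample was lower than every empty sample. The library values were 524 and 414 in empty and 263 and 208 in Wnt5a, so the Wnt5a library held 0.502 times the empty level in A and 0.504 times in B. The means of 469 ± 78.1 and 236 ± 38.6 (SD, n = 2 each) gave a log2 difference of -0.99 (SE 0.15, 95% interval -1.35 to -0.62, limma adjusted p = 0.0300). Within A and within B the log2 difference was the same to 2 decimals, -0.99.

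The fall of Cartpt stayed past the threshold in each of the 4 fits that left out 1 library, with log2 differences from -1.16 to -0.82, and in edgeR (adjusted p = 0.0307) and DESeq2 (adjusted p = 6.6e-08). Its limma adjusted p rose to 0.0502 with a minimum mean of 50, to 0.0850 without a trend in the variance and to 0.116 without a filter on low values, each of which ends the call. Its location on chromosome 13, where the median difference was 0.0047, left the value almost as it was when chromosome medians were removed (-0.99, limma adjusted p = 0.0306).

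Resp18, regulated endocrine-specific protein 18, is a protein of the secretory granule found in endocrine and nerve cells. The empty samples ran from 2834 through 3406 to 4061 normalised reads and the Wnt5a samples from 2228 through 2406 to 2590, without overlap. The 2 empty libraries stood apart from each other, at 3983 in A and 2887 in B, while the Wnt5a libraries were at 2534 and 2283. The log2 difference was -0.50 (SE 0.15, 95% interval -0.85 to -0.14, limma adjusted p = 0.172), made up of -0.65 within A and -0.34 within B. Without the empty library B it was -0.73 (limma adjusted p = 0.00029) and without the empty library A it was -0.26 (limma adjusted p = 0.318). DESeq2 called it (adjusted p = 0.0079). Resp18 lies on chromosome 1, whose genes had a median difference of -0.17, and its difference from that median was -0.32 (limma adjusted p = 0.503).

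Grp and Nmb encode gastrin-releasing peptide and neuromedin B, the mammalian relatives of bombesin. Grp rested on 54 and 82 reads in the empty libraries and 77 and 110 in the Wnt5a libraries. Its empty samples ran from 7.75 through 19.0 to 21.4 normalised reads and its Wnt5a samples from 13.2 through 22.1 to 31.0, which overlap. Of the 8 members tested, Grp alone had the higher mean in Wnt5a cells, 21.9 ± 5.45 against 17.9 ± 4.24 (SD, n = 2 each). The log2 difference of 0.28 did not pass (95% interval -0.35 to 0.91, limma adjusted p = 0.705), and it was 0.27 within A and 0.29 within B. With 1 library left out it ran from 0.03 to 0.52. The 2 libraries of each group differed more from each other than the groups did, with B above A in both.

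Nmb had 40 and 48 reads in the empty libraries and 44 and 41 in the Wnt5a libraries. Its means were 11.6 ± 0.845 and 9.97 ± 0.525 normalised reads (SD, n = 2 each), a log2 difference of -0.20 (95% interval -0.76 to 0.36, limma adjusted p = 0.770), and the samples overlapped. Because the Wnt5a mean alone is under the minimum of 10, Nmb was tested only through its level in empty cells. Nmb overlaps Sec11a, and 82.3% of its 50-base windows were found in no other gene. Sec11a, a signal peptidase subunit, had 416 and 480 normalised reads in empty and 435 and 482 in Wnt5a cells.

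Gal, which encodes galanin, had 4 and 5 reads in the empty libraries and 3 and 9 in the Wnt5a libraries, and some samples of both groups had 0 reads. A sample with 0 reads allows up to 3, and this bound, like the other limits given for low counts, covers counting error only. Galanin RNA was therefore at the limit of what these depths can show, and a difference between the groups was not detectable.

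Ddc was the amine gene with abundant RNA. Its empty samples ran from 9651 through 10074 to 10491 normalised reads and its Wnt5a samples from 9192 through 9782 to 10075. The ranges overlapped, with library B above library A in each group. The means were 10082 ± 451 and 9724 ± 408 (SD, n = 2 each), and the log2 difference was -0.05 within A, within B and between the means (95% interval -0.26 to 0.16, limma adjusted p = 0.854). A change of the size seen for Cartpt lies outside that interval. Ddc lies on chromosome 11, where the median difference of all genes tested was 0.17, and with that median removed its difference was -0.22 (limma adjusted p = 0.395).

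Tph1, the tryptophan hydroxylase of peripheral serotonin synthesis, had 18 and 11 reads in the empty libraries and 27 and 16 in the Wnt5a libraries. Its library values of 4.96 and 2.80 in empty and 6.33 and 3.75 in Wnt5a cells were under the minimum for testing, and they overlapped. The cells thus held abundant RNA for the decarboxylase and few reads for the hydroxylase that precedes it on the route to serotonin.

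Uchl1 encodes a ubiquitin C-terminal hydrolase also known as PGP9.5, which stains nerves and neuroendocrine cells. Its libraries held 4899 and 6163 normalised reads in empty and 4231 and 5399 in Wnt5a cells. Library B held 1.26 times the level of A in empty and 1.28 times in Wnt5a cells, a larger gap than that between the groups, and the libraries overlapped. The means were 5531 ± 894 and 4815 ± 826 (SD, n = 2 each), with a log2 difference of -0.20 (95% interval -0.56 to 0.16, limma adjusted p = 0.615). Within A it was -0.21 and within B -0.19, and with 1 library left out it ran from -0.38 to -0.03. The antisense gene Uchl1os overlaps it and had at most 1.89 normalised reads in any sample. Without strand information, reads of such pairs cannot be told apart.

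**Figure D2:**
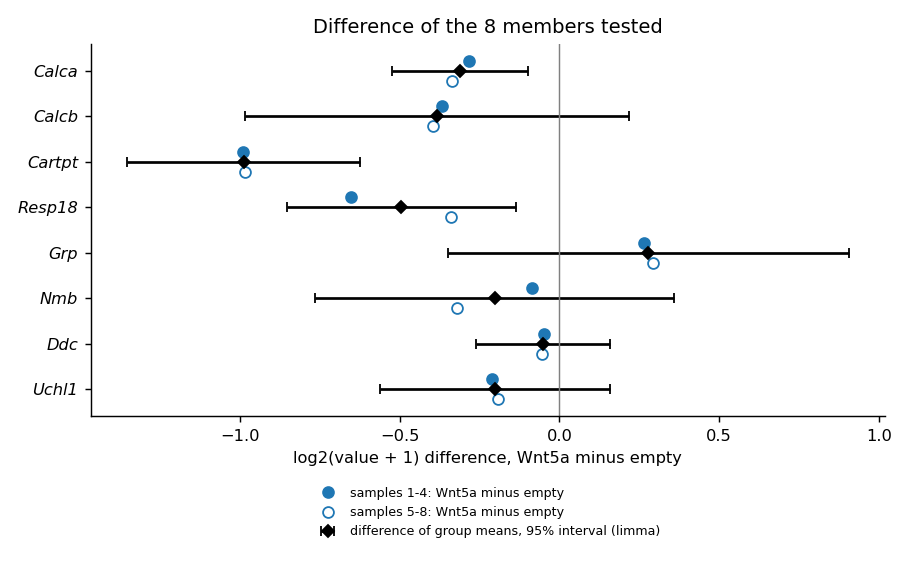
Differences between Wnt5a and empty on the log2(value + 1) scale (horizontal axis) for the 8 members tested; diamonds and bars are the difference of group means with its 95% limma interval, and circles are the differences within library A (filled) and B (open). Both circles of Cartpt lie at -0.99, and those of Grp lie on the positive side at 0.27 and 0.29.

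Among the 8 members tested, 7 were lower in Wnt5a cells both within A and within B, where 34.7% of all genes tested were. The libraries did not overlap, with Wnt5a lower, for 5 of the 8 (Calca, Calcb, Cartpt, Resp18 and Nmb), against 21.5% of all genes tested. The median log2 difference over the 8 was -0.26, beside 0.0026 over all 12357 genes, and 3 of the 8 had an unadjusted limma p under 0.05, as 16.1% of all genes did. Nmb entered these counts only through its level in empty cells, and the 2 members under the minimum are not in them. The members were chosen with earlier results of these data known, so the counts are a description only. With 2 libraries a group, an exact permutation test of a single gene cannot give a two-sided p under 0.333, so the calls rest on the limma fit across all genes.

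Per kilobase of the longest GENCODE M21 transcript, the members' levels differed widely. Calca stood first in empty cells at 8298 ± 351 normalised reads per kb (SD, n = 2), above 99.95% of the 17347 genes with a length. Ddc (4996 ± 223), Uchl1 (4700 ± 759) and Resp18 (4592 ± 1036) followed in reads per kb, and these 3 neighbours did not differ beyond the spread of their libraries. Cartpt came next at 379 ± 63.1 reads per kb, above 91.1% of genes. Calcb (17.3 ± 3.12), Nmb (16.5 ± 1.20) and Grp (13.6 ± 3.22) formed the next set, again within their spread of one another.

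The lowest levels per kb in empty cells were those of Gal (1.51 ± 0.155) and Tph1 (0.851 ± 0.335). In Wnt5a cells the 5 highest members kept their order, with Calca at 6697 ± 457, Ddc at 4819 ± 202, Uchl1 at 4091 ± 702, Resp18 at 3220 ± 238 and Cartpt at 190 ± 31.2 reads per kb (SD, n = 2 each). Cartpt was then above 80.1% of genes. Of the next 3, Grp (16.6 ± 4.13) stood above Nmb (14.1 ± 0.744) and Calcb (13.0 ± 2.59), within their spread. Divided by coding length in place of transcript length, 7 members in empty and 6 in Wnt5a cells took another place: in both groups Uchl1 then stood above Ddc and Tph1 above Gal, and the order of the middle set was Grp, Calcb and Nmb.

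**Figure D3:**
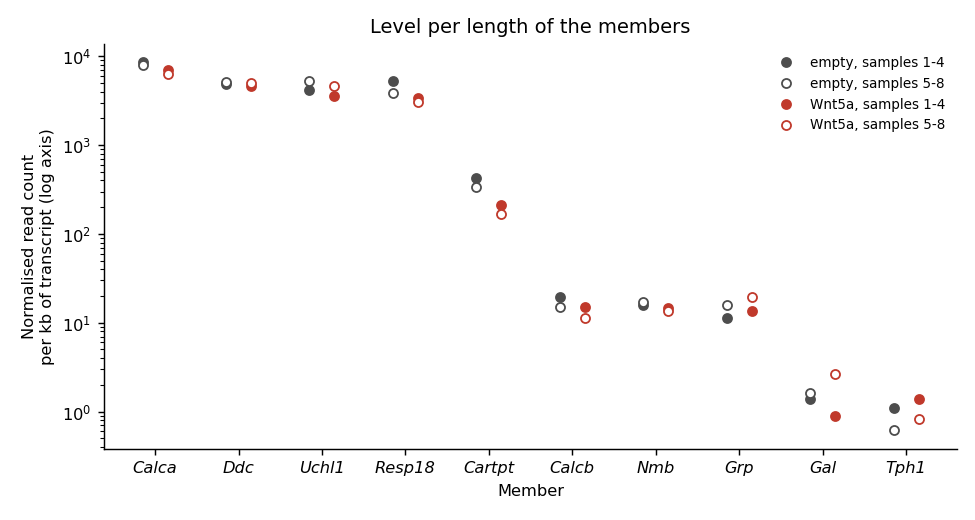
Normalised read count per kb of the longest transcript (vertical axis, log scale) for the 10 members in the 4 libraries, ordered by their mean in empty cells. The 4 members on the left lie between 3220 and 8298 reads per kb on average, Cartpt lies between 190 and 379 on average, and Gal and Tph1 lie near 1.

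The other genes of these pathways were described from lists written from general knowledge, but with earlier results of these data known. Their counts are therefore a description only. Of 67 further neuropeptide precursors, 46 were listed in the tables and 10 were tested. Of these, 0 rose and 1 fell with limma, beside the 2.06% of all genes that passed. In this list edgeR called 1 and DESeq2 called 3, all lower, beside 1.99% and 4.35% of all genes in either direction. The median log2 difference was -0.29. Nmu, which enters that median, was tested only through its level in empty cells (23.4 normalised reads against 4.10 in Wnt5a cells). The gene that fell was Igf2, a peptide growth factor, at 8260 ± 324 normalised reads in empty and 5518 ± 278 in Wnt5a cells (SD, n = 2 each; log2 difference -0.58, limma adjusted p = 0.024). The call was lost without the Wnt5a library B, without a filter on low values and without a trend in the variance, while the log2 difference stayed between -0.63 and -0.53 in all 17 alternatives. Nucb1, the source of nesfatin-like peptide and one of the 3 most abundant genes of the list, had 1277 ± 107 and 1195 ± 59.1 normalised reads (limma adjusted p = 0.697). The 36 precursors under the minimum reached at most 13.8 normalised reads in a library.

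The granins and prohormone processing enzymes, which package peptides such as those above and cut and amidate them, were all listed in the tables. Of 28 genes 23 were tested, 0 rose and 4 fell with limma, against 0.672% of all genes that fell. For these genes edgeR called 4 and DESeq2 called 5, all lower, beside 1.99% and 4.35% of all genes in either direction. The mean was lower in Wnt5a cells for 22 of the 23, where 49.3% of all genes tested had a lower mean, and for 17 of them it was lower both within A and within B (34.7% of all genes). The median log2 difference was -0.14. Of the 5 genes under the minimum, the convertase gene Pcsk5, chosen after its values were seen, was on the other side, with 0 and 3 reads in empty libraries against 55 and 36 in Wnt5a libraries. Its normalised read counts were 0 and 0.763 against 12.9 and 8.44, and it was not tested. Scg2, the precursor of secretoneurin, went from 4109 ± 396 to 2468 ± 6.84 normalised reads (SD, n = 2 each; log2 difference -0.73, limma adjusted p = 0.012). Pam, the enzyme that amidates peptides, went from 13095 ± 335 to 9025 ± 181 (log2 difference -0.54, limma adjusted p = 0.031). Pcsk1n, which encodes proSAAS, a precursor and inhibitor of Pcsk1, had a log2 difference of -0.54 and thus fell (1350 ± 156 to 925 ± 38.8 normalised reads, limma adjusted p = 0.049). Pcsk2, a prohormone convertase, fell by 0.47 (3170 ± 25.8 to 2297 ± 178 normalised reads, limma adjusted p = 0.047).

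The call on Scg2 held in 15 of 17 alternatives, and those on Pam, Pcsk1n and Pcsk2 were closer to the threshold. Scg2 and Pam lie on chromosome 1, and after its median of -0.17 was removed Scg2 was at -0.56 (limma adjusted p = 0.035) and Pam at -0.36 (limma adjusted p = 0.135). With chromosome medians removed, Pcsk1n was at -0.53 and Pcsk2 at -0.46, almost as before, with limma adjusted p-values of 0.058 and 0.054. Both calls were also lost with a minimum mean of 50, and that of Pcsk1n with a pseudocount of 0.1. With either Wnt5a library left out, the calls of Pam, Pcsk1n and Pcsk2 were lost, as were those of all 4 genes without a trend in the variance or without a filter. The most abundant genes of the list over the 4 libraries were Pam, Pcsk1 and Cadps2. Pcsk1, a convertase, had 7256 ± 156 and 6638 ± 793 normalised reads (SD, n = 2 each; limma adjusted p = 0.624) and did not pass. Cadps2, a regulator of dense-core granule release, had 4077 ± 272 and 3706 ± 430 (limma adjusted p = 0.603).

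**Figure D4:**
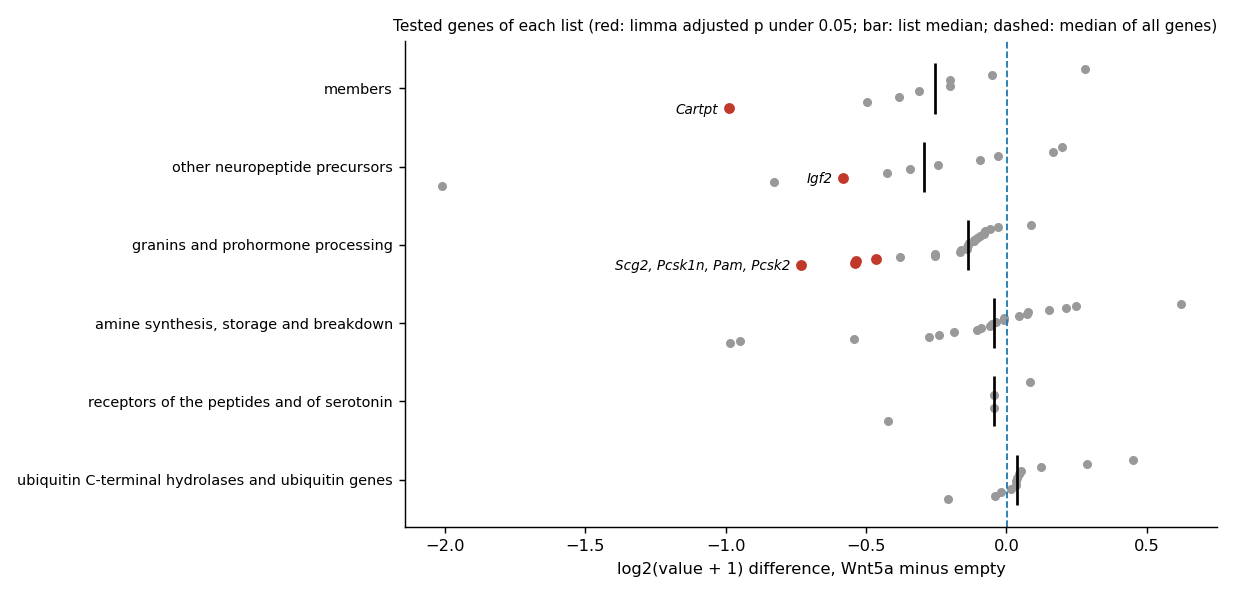
Log2(value + 1) difference between Wnt5a and empty (horizontal axis) of each tested gene in the members and the 5 pathway lists; each point is a gene, red where the limma adjusted p was under 0.05, the bar is the list's median and the dashed line the median of all genes. All 6 red points lie on the negative side, 4 of them among the granins and processing genes.

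Of 34 genes for amine synthesis, storage and breakdown, 33 were listed and 20 tested. With limma 0 passed and 5 had an unadjusted p under 0.05, beside 16.1% of all genes. Gad1, 1 of these 5, was tested only through its level in empty cells (15.5 normalised reads against 7.39 in Wnt5a cells). The same holds for Th (13.2 against 8.92), which also enters the median. In this list edgeR called 0 and DESeq2 called 1, beside 4.35% of all genes, and the median log2 difference was -0.04. The most abundant were Gch1, Odc1 and Slc18a1. Gch1, which makes the cofactor of the aromatic amino acid hydroxylases, had 2474 ± 31.3 and 2095 ± 66.3 normalised reads (SD, n = 2 each; log2 difference -0.24, limma adjusted p = 0.164). Slc18a1, a vesicular monoamine transporter, had 805 ± 51.6 and 759 ± 88.6 (limma adjusted p = 0.765).

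Few receptors of these peptides and of serotonin were tested. Of 27, 15 were listed in the tables used here and 4 tested, with a median log2 difference of -0.04. With limma 0 passed, 0 had an unadjusted p under 0.05, and edgeR and DESeq2 called 0. The calcitonin gene-related peptide receptor component gene Crcp had 197 ± 19.4 and 209 ± 24.7 normalised reads, and Ramp1, a coreceptor, had 58.3 ± 11.5 and 56.2 ± 6.56 (SD, n = 2 each). Of 13 ubiquitin hydrolase and ubiquitin genes beside Uchl1, 12 were tested, with a median log2 difference of 0.04. With limma 0 passed, 3 had an unadjusted p under 0.05 (16.1% of all genes), edgeR called 0 and DESeq2 called 1 (4.35% of all genes). Uba1, the main ubiquitin-activating enzyme, was at 4835 ± 33.8 and 4704 ± 30.3 normalised reads (SD, n = 2 each; limma adjusted p = 0.870).

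Markers of neuroendocrine and other cells were read beside these values. Of 18 neuroendocrine markers, 16 were tested and 1 of them, Scg2, fell, where 0.672% of all genes tested fell. The list's summed level was 77779 and 77816 in empty cells against 72261 and 70904 in Wnt5a cells. Of 6 neuronal markers 3 were tested and 1 fell, Slc17a6, a vesicular glutamate transporter, beside the same 0.672% of all genes. Slc17a6 went from 147 ± 3.16 to 60.4 ± 9.70 normalised reads (SD, n = 2 each; log2 difference -1.28, limma adjusted p = 0.0090). Without a filter on low values its limma adjusted p was 0.0507. The summed neuronal level was 5108 and 4988 in empty against 3901 and 3991 in Wnt5a cells, nearly all of it Map2 and Tubb3. Map2 had means of 3951 and 3083 (limma adjusted p = 0.102) and Tubb3 of 945 and 799 (limma adjusted p = 0.617). Rbfox3 and Slc17a7 had at most 5.35 normalised reads in any library. 

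The summed fibroblast markers were 604 and 355 in empty against 246 and 249 in Wnt5a cells, nearly all of it Dcn, while Col1a1, Col1a2 and Col3a1 had at most 3.56 normalised reads in any library. Endothelial markers summed to 3210 and 2335 in empty and 2305 and 2006 in Wnt5a libraries, nearly all of it Vwf, and Pecam1 had at most 4.14. Lung epithelial markers summed to 1592 and 1368 against 1337 and 1314, mostly Abca3. Leukocyte markers summed to between 10.8 and 15.5 in all 4 libraries. The defining collagen and Pecam1 markers are thus at or near 0 in both groups. Of all 17655 genes listed, 0 were without reads in all 4 libraries, so having some reads does not set a listed marker apart. Of 7 fibroblast, 6 endothelial, 10 lung epithelial and 7 leukocyte markers, 6, 5, 7 and 4 were listed in the tables used here and 1, 1, 3 and 1 were tested. With limma 0 of them passed, and 1, Dcn, had an unadjusted p under 0.05 (16.1% of all genes; log2 difference -0.89, limma adjusted p = 0.131); edgeR called 0 and DESeq2 called 1, also Dcn. The part of Dcn, Vwf and the neuronal markers in the differences of Calca, Cartpt and Resp18 was not tested.

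The pattern of Cartpt over the 4 libraries was most like those of 3 genes by the Euclidean distance of log2 values centred on their mean. Thrsp, a regulator of lipid synthesis on chromosome 7, lay at a distance of 0.0575, with 50.5 and 39.5 normalised reads in empty and 24.6 and 20.4 in Wnt5a libraries (limma adjusted p = 0.071). Slc38a11, a solute carrier on chromosome 2, lay at 0.128, with 253 and 221 against 133 and 98.9 (limma adjusted p = 0.028). Atp2b4, a plasma membrane calcium pump on chromosome 1, lay at 0.129, with 228 and 176 against 125 and 95.6 (limma adjusted p = 0.068). The distances are over 4 libraries only and describe likeness of level, not function.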

How the data were processed

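RNA-seq values of 16 samples were used. The deposited signal values are gene read counts divided by 1 size factor per sample: per the submitters' processing notes TopHat, Bowtie, HTSeq and DESeq2 were used, with build and versions not given in the sources used here, and all values (100%, tolerance 0.1 reads) were whole multiples of a step of 0.934 to 1.11 in each sample. Libraries were made by the authors from 500 ng of RNA by oligo-dT purification and the NEBNext Ultra kit, per the labels' protocols.

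Recovered reads were used to compare samples (the chi-square per degree of freedom over genes averaging 10 or more reads). Values under an index of 1.5 marked 1 library, whose 4 samples were averaged. Library totals were 30220749 and 32592342 reads (empty A, B) and 35102931 and 35315408 (Wnt5a A, B). The 12357 genes whose values averaged 10 or more over all 16 samples were fitted with limma 3.58.1 in R 4.3.3 (trended eBayes) after a log2(value + 1) transform. The p-values were adjusted by the Benjamini-Hochberg method, and the threshold was 0.05. A log2 difference on that scale understates changes of low genes.

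Alternatives were pseudocounts of 0.1 and 10, a minimum of 50 or none, quantile normalization, median centring, no trend, 16 separate samples, a replicate block, chromosome medians removed, omission of each library, and edgeR 4.0.16 and DESeq2 1.42.0 on recovered reads. The members and lists were chosen with earlier results of these data known. Genes named are the members, Wnt5a, the list genes past the threshold and some of the 3 most abundant per list. The 3 nearest to Cartpt and defining markers are named too. Rb1, Trp53, Sec11a, Uchl1os, Pcsk5, Gad1, Th, Nmu, Map2 and Tubb3 were added. Chromosomes and upstream windows come from RefSeq (GRCm38.p6), lengths from GENCODE M21.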

Additional observations from a re-analysis of the deposited data

Results flagged for a closer look

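Grp in the empty group held 1 sample far from the others. Sample 2 had 7.75 normalised reads, from 7 reads, and the other 7 samples had 15.5 to 21.4. Its gap to the nearest sample was 0.563 of the group's range (Dixon's ratio, past the 95% limit for 8 samples). In all, 20 sets of 8 samples were checked (10 members in 2 groups), and chance would mark about 1 in 20 if the samples were independent. The samples are 4 near repeats of each of 2 libraries, so the limit is a rough guide only. The Grp sample belongs to library A, whose value of 14.9 is the mean over 4 samples.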

How the results depend on the processing

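Over 17 alternatives, the members' log2 differences kept their direction. No filter, a minimum mean of 50, no variance trend and the replicate block cannot change a log2 difference, so direction was fixed there. The fits of 16 separate samples moved it little. Of the 133 values tested, 116 stayed on their side of the threshold, 14 passed it newly and 3, all of Cartpt, no longer did. The main settings called 1 member and 254 genes. No filter gave 0 members and 146 genes, a minimum mean of 50 gave 0 and 102, and no variance trend 0 and 158, while DESeq2 called 3 members and 538 genes. Median centring, quantile normalization, other pseudocounts, removal of chromosome medians and edgeR called 1 member each, Cartpt. All 16 samples counted separately gave 4 members and 4377 genes. With 1 library left out, 1 to 2 members and 138 to 1098 genes were called; the lone library was assumed to vary like the rest.

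The replicate block, which pairs A with A and B with B, gave 4 members (Calca, Cartpt, Resp18 and Uchl1) and 2095 genes; with all 16 samples it gave 6 members and 6012 genes. The labels do not say that a number marks a shared batch, and with only 2 pairs the deviations of same-lettered libraries correlated across genes with Pearson's r = 0.44 (Spearman's rho = 0.53), where genes are not independent replicates. Of the 254 genes, 171 were higher, and 117 of 206 with chromosome medians removed. Depth limits Gal, Tph1, Nmb, Grp and Calcb, at 110 reads or fewer per library.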

Other observations

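Nmu, the precursor of neuromedin U and chosen after its values were seen, had 10.2 and 36.7 normalised reads in the empty libraries and 4.22 and 3.98 in the Wnt5a libraries. Its log2 difference was -2.01 (limma adjusted p = 0.132), -1.10 within A and -2.92 within B, and DESeq2 gave an adjusted p of 0.0013. Its Wnt5a mean is under the minimum, so it was tested only through its level in empty cells.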
